A study of Mus musculus with 24 samples.

Results

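The response of small cell lung cancer cells to p53 restoration was compared with and without cyclosporin A (CsA), as an interaction computed within each cell line. The interaction is the restoration response under CsA (Restored + CsA minus Control + CsA) minus the restoration response without it (Restored minus Control), in log2(TPM + 1), where TPM is the share of transcripts scaled to a fixed total per library. A negative value means that a gene's restoration response was lower with CsA, and a positive value that it was higher. All 24 libraries of the series entered it and gave 6 line values per gene, 3 from Type D and 3 from Type V lines. It was tested for 14104 of 25239 genes, those reaching 1 TPM in 3 or more libraries.

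The lines were grown from individual lung tumors of mice homozygous for the trap allele of p53 (Trp53 XTR/XTR) and for floxed Rb1 (flox/flox) and Rbl2 (flox/flox), with Rosa26 FlpO-ER, in which Ad:CMV-Cre had deleted Rb1 and Rbl2 and trapped Trp53. All 8 groups therefore lack Rb1 and Rbl2, and each line stands for 1 tumor. Each line received 4 treatments for 72 h, which were vehicle (Control), CsA (Control + CsA), 4-hydroxytamoxifen to excise the trap (Restored) and both agents (Restored + CsA). Type D lines (4711-1, 4711-18 and 4716-11, replicates 1, 2 and 3) lose viability after restoration, and Type V lines (4711-11, 4716-10 and 4716-14, replicates 1, 2 and 3) stay viable. The paper reports that CsA kept Type D lines from dying after restoration. A difference in survival between Type D Restored and Restored + CsA cells therefore cannot be told apart from the Type D interaction. Each line gave 1 library per treatment, so the replicates of every test are the lines. In bulk RNA, fewer cells of a kind and less RNA per cell cannot be told apart.

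p53 is a transcription factor that raises genes of cell cycle arrest, cell death and metabolism, and indirectly lowers genes of cell division. CsA binds cyclophilins, a family of prolyl isomerases, and the complex with cyclophilin A inhibits the phosphatase calcineurin. Cells also respond to low oxygen, through the HIF transcription factors, and to amino acid shortage or endoplasmic reticulum stress, through ATF4. The HIF, ATF4, immediate early and NF-kB programs are all known to change within hours of a stress.

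The targeted gene was read first as a check of the labels. Trp53 ranged from 10.5 to 15.3 TPM in the 12 Control and Control + CsA libraries and from 181.5 to 252.7 TPM in the 12 Restored and Restored + CsA libraries. Neuroendocrine markers of small cell lung cancer were uneven, with Chga at 0 in 24 libraries and Neurod1 at 0 in 21, while Ncam1 ranged from 4.46 to 27.3, Insm1 from 0 to 49.6, Uchl1 from 0 to 40.9 and Eno2 from 0.119 to 26.0 TPM. The 15 markers summed to 9.79 to 22.3 TPM in Type D Control and to 44.7 to 82.1 TPM in Type V Control, and the keratin Krt18 ranged from 49.4 to 5115 TPM. Libraries held 11853 to 12651 genes at a TPM of at least 1. Sequencing depth is unknown because TPM keeps no counts.

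**Figure D1:**
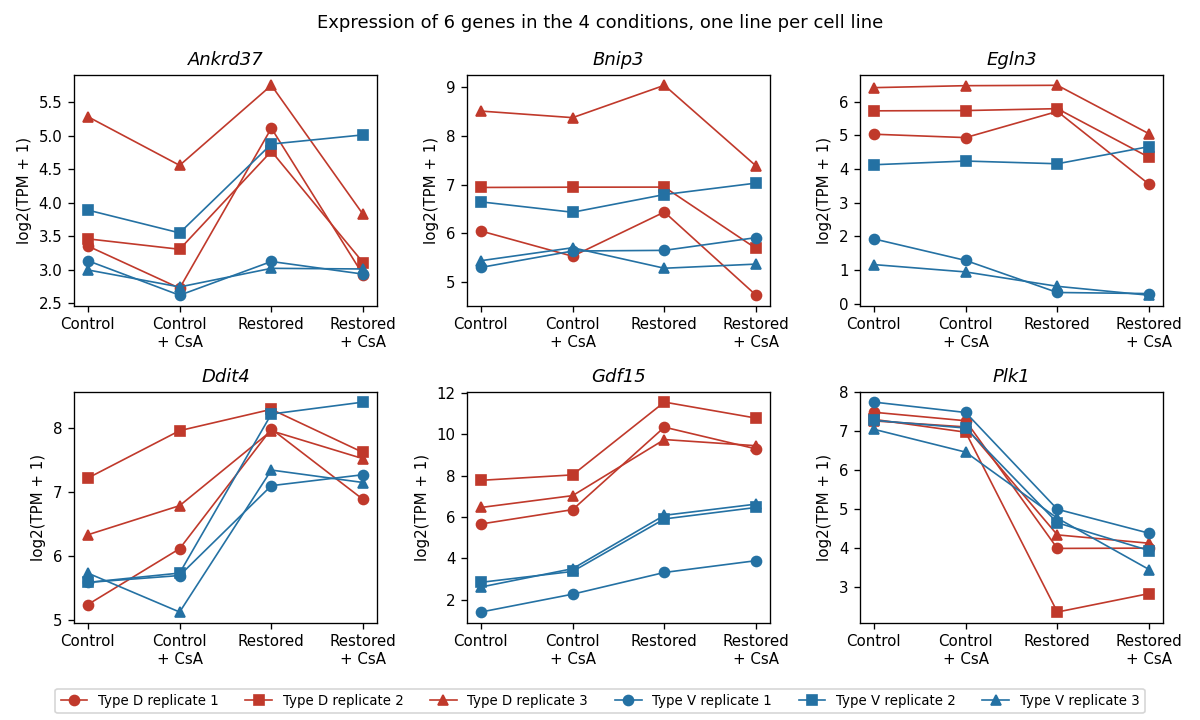
Expression, as log2(TPM + 1) on the y axis, of 6 genes in the 4 conditions on the x axis, with 1 point per library and a joined trace per cell line (red, Type D; blue, Type V). From Restored to Restored + CsA, all 3 red traces run downward for Ankrd37, Bnip3 and Egln3, while the 3 blue traces of Bnip3 run upward, as from 110.3 to 129.9 TPM in Type V replicate 2.

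Promoters are shown first for 3 genes with a Type D interaction below -1, because they are known targets of HIF, which binds a core written ACGTG or GCGTG. The sequences are from RefSeq on GRCm38.p6, run from 250 bases before to 50 after the start of the gene, and are written 5′ to 3′ on the gene's own strand (minus in all 3). Capitals mark every match to ACGTG or GCGTG on either strand, and overlapping matches were counted separately. The Ankrd37 window lies at chr8:45999801-46000100, that of Bnip3 at chr7:138909457-138909756 and that of Egln3 at chr12:54203825-54204124. The Ankrd37 window follows the RefSeq start and lies inside the gene as GENCODE M21 draws it, which begins further upstream.

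Ankrd37: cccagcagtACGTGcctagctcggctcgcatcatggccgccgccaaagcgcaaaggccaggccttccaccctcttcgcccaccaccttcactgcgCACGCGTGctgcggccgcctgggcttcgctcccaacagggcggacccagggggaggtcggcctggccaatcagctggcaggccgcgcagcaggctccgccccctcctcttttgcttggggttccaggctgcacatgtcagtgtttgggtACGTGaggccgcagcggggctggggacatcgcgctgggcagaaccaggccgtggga
Bnip3: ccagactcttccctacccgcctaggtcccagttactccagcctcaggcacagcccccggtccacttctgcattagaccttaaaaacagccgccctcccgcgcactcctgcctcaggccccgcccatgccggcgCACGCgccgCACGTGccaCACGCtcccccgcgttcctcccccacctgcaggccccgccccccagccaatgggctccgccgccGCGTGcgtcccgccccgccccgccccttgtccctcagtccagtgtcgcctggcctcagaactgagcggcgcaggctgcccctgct
Egln3: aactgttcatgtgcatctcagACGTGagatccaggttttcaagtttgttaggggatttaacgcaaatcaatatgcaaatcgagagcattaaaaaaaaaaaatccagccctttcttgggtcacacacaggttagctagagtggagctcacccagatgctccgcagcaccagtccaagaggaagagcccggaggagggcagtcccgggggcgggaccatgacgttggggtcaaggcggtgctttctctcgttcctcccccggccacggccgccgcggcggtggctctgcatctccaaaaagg

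The Ankrd37 window held 4 matches, that of Bnip3 5 and that of Egln3 1. Of all 32851 promoter windows of the same length, 19.6% held ACGTG, 32.4% GCGTG and 43.8% either. A match is a run of letters and not evidence of binding.

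Over all 6 lines, no gene passed the test. At an adjusted p under 0.05 and at least 1 log2, 0 of 14104 genes (0%) were called in either direction by limma, and the smallest adjusted p was 0.215. At an unadjusted p under 0.05 there were 1125 genes (7.98% of those tested; 705 would be 5%), 564 negative (4%) and 561 positive. Of all genes, 321 were negative in 6 of 6 lines (2.28%) and 342 positive (2.42%). The median 95% half-width of a gene's pooled interaction was 0.247 log2. Leaving out Type V replicate 2 called 1 gene, Mir3113, and leaving out any other line called 0.

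The genes with the smallest pooled p among those of 1 sign in 6 of 6 lines lay on both sides of 0. Depp1, a gene of FOXO and autophagy signaling, had a pooled interaction of -1.38 ± 0.19 (SE, n = 6 lines, limma adjusted p = 0.215). In Type D Restored its TPM was 2.55, 9.88 and 2.53 in replicates 1, 2 and 3, and in Type D Restored + CsA it was 1.36, 3.40 and 2.17. Without restoration CsA values lay higher, from 1.46, 4.04 and 0.723 TPM in Type D Control to 3.95, 8.33 and 3.37 TPM in Control + CsA.

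Upp1, which encodes the uridine-salvaging enzyme uridine phosphorylase, had a pooled interaction of -0.68 ± 0.10 (SE, limma adjusted p = 0.241). Its TPM went from 12.8, 2.54 and 18.95 in Type D Control to 74.8, 22.2 and 48.9 in Restored, and with CsA from 6.71, 2.71 and 15.4 to 21.3, 11.9 and 29.8. Type V Restored held 26.3, 16.6 and 39.4 TPM, and Type V Restored + CsA 22.3, 14.4 and 23.5 TPM. The CsA library was lower than its Restored partner in each of the 6 lines.

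Cd14, the lipopolysaccharide co-receptor, had an interaction of -0.49 ± 0.07, and Prdx5, a mitochondrial and peroxisomal peroxidase, one of -0.40 ± 0.06 (SE, n = 6 lines; limma adjusted p = 0.215 and 0.241). Pthlh, which encodes parathyroid hormone-related protein, stood at -0.73, and Serpinf1, a secreted inhibitor of vessel growth, at -1.20. Type D levels of Serpinf1 were low, at 0.660, 0 and 0.120 TPM in Control and 2.57, 1.15 and 2.14 in Control + CsA. They were 0.892, 0.322 and 0.900 TPM in Restored and 0.272, 0.149 and 0.301 in Restored + CsA. The transcripts 2700046G09Rik and 4833419F23Rik stood at -0.81 and -0.99. None of these 6 was called.

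On the positive side, Cad, the enzyme that starts pyrimidine synthesis, had a pooled interaction of 0.40 ± 0.07 (SE, limma adjusted p = 0.324). Its TPM was 76.2, 87.9 and 107.0 in Type D Restored against 99.3, 120.9 and 128.2 in Type D Restored + CsA, higher in 3 of 3 lines. In Type V it was 107.1, 74.7 and 146.7 in Restored against 104.2, 80.3 and 124.8 in Restored + CsA, higher in 1 of 3 lines. Gcnt1, a glycosyltransferase, stood at 0.62, Tm7sf2, a sterol reductase of cholesterol synthesis, at 0.55 and Ifrd2, a ribosome-binding regulator of translation, at 0.30. The short RNA genes Mir6998, Mir3113 and Snora15 had estimates of 1.43, 1.07 and 2.38. Mir6998 was listed at 0 TPM in 13 of 24 libraries, and the read counts behind such values are unknown.

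**Figure D2:**
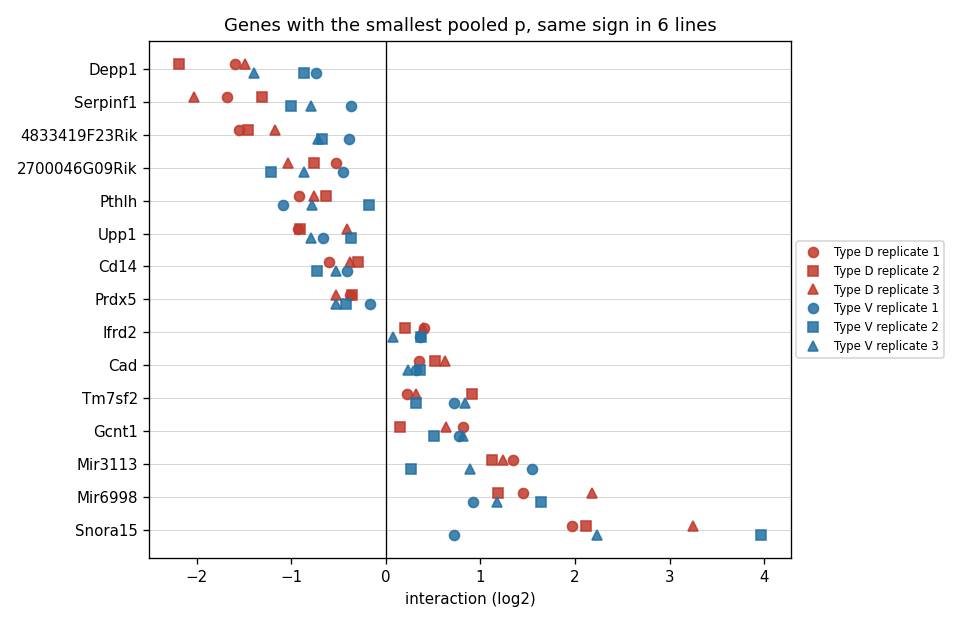
The interaction in log2 (x axis) of 15 genes with the smallest pooled p among those of 1 sign in 6 lines, with 1 point per cell line. Each gene's 6 points lie on 1 side of 0, by the rule that chose them, and those of Depp1 run from -2.19 to -0.74.

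The size of the whole p53 response was then compared between the treatments. Within a line, the interaction was regressed over genes on the mean of its restoration responses with and without CsA, so a slope of 0 means a response of equal size. The slopes were -0.110, -0.100 and 0.036 in the Type D lines and -0.082, 0.022 and -0.025 in the Type V lines. Their mean was -0.043 ± 0.064 (SD, n = 6 lines; exact sign-flip permutation test, two-sided, p = 0.1875, smallest possible 0.03125), and 4 of 6 were negative. Expressed as the response kept under CsA, the lines lay between 89.5% and 103.7%, with a mean of 95.9%. A difference between the types was not detected (exact permutation test, p = 0.6, smallest possible 0.1).

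No p53 target was called. Cdkn1a, which encodes the cell cycle inhibitor p21, was negative in 6 of 6 lines with a pooled interaction of -0.34 ± 0.08 (SE, limma adjusted p = 0.522). Type D Restored held 1871, 2540 and 1563 TPM of Cdkn1a, and Type D Restored + CsA 1271, 2082 and 1405 TPM. Mdm2, the p53-degrading ubiquitin ligase, had a Type D interaction of -0.38 ± 0.15 and a Type V interaction of 0.04 ± 0.15 (SE, n = 3 lines each; limma adjusted p = 0.409 and 1).

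Of 57 p53 targets, 46 had a negative pooled interaction (80.7%, against 48% of all genes), with a median of -0.12 beside 0.01 for all genes, and 0 were called. In Type D 44 of 57 were negative (median -0.12), and in Type V 33 of 57 (57.9%, against 52.7% of all genes; median -0.03). The line medians were -0.25, -0.14 and -0.02 in Type D and -0.14, -0.03 and -0.03 in Type V, so the types overlapped. In Type D replicate 3, 30 of 57 were negative. Of all 706 genes raised by restoration, 70% were negative pooled, with a median of -0.07. Trp53 itself stood at -0.01 (95% interval -0.22 to 0.20), Apaf1, the apoptosome scaffold, at -0.04 (-0.27 to 0.19) and Perp, a desmosomal p53 target, at -0.12 (-0.27 to 0.03). Pmaip1, which encodes the BH3-only protein NOXA, stood at -0.59 (limma adjusted p = 0.522). Of the study's Module 5 genes, 81 of 101 were negative in Type D (median -0.21) and 66 of 101 in Type V (median -0.05). Their line medians were -0.38, -0.30 and -0.02 in Type D and -0.14, 0.07 and -0.14 in Type V. The modules were chosen on the Control and Restored libraries, which enter the interaction with opposite signs, so their direction is not independent evidence.

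The cyclophilin genes, which encode the protein family that CsA binds, had no called member among 16. Ppia, the gene of cyclophilin A, had a pooled interaction of 0.14 (95% interval -0.01 to 0.29) and Ppie, the gene of cyclophilin E, one of 0.06 (-0.13 to 0.25). The medians were 0.08 for the 16 cyclophilins, -0.00 for 13 genes of calcineurin and NFAT and 0.02 for 13 genes of the permeability transition.

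In the Type D lines, 3 of 14104 genes were called (0.0213%), all with a negative interaction. They were Ankrd37, Bnip3 and the short RNA gene Mir6950. At an unadjusted p under 0.05 there were 1558 genes (11%), 652 negative (4.62%) and 906 positive (6.42%). At an adjusted p under 0.1 there were 26, of which 25 were negative.

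Ankrd37, which encodes an ankyrin repeat protein and is a known HIF target, had a Type D interaction of -1.42 ± 0.13 (SE, n = 3 lines; limma adjusted p = 0.0389). Its TPM in replicates 1, 2 and 3 went from 9.22, 10.0 and 37.9 in Type D Control to 33.5, 26.2 and 52.8 in Restored, and with CsA from 5.61, 8.88 and 22.5 to 6.59, 7.61 and 13.2. Restored lay above Control in 3 of 3 lines, whereas Restored + CsA lay below Control + CsA in 2 of 3. The 3 Type V lines had interactions of 0.33, 0.48 and 0.24, so the types did not overlap, as for 656 of all genes in that order (4.65%). The difference of the types was -1.77 ± 0.19 (limma adjusted p = 0.0896) and missed the threshold. Ankrd37 overlaps Ufsp2 and Lrp2bp on the other strand at chr8:45996902-46005707 (GENCODE M21, GRCm38), and whether reads were counted by strand is not given in the sources used here.

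Bnip3, which encodes a mitochondrial protein of mitophagy and cell death, had a Type D interaction of -1.32 ± 0.13 (SE, n = 3 lines; limma adjusted p = 0.0389). Type D Control held 65.3, 122.1 and 363.3 TPM and Restored 85.8, 122.7 and 524.4 TPM, against 45.3, 122.6 and 330.8 TPM in Control + CsA and 25.6, 50.7 and 166.0 TPM in Restored + CsA. Restored + CsA was the lowest of the 4 conditions in each Type D line. In Type V the 3 interactions were -0.08, 0.45 and -0.18, and the difference of the types was -1.39 ± 0.19 (limma adjusted p = 0.129).

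Mir6950 was read in 3 Type D libraries alone, at 2.42 TPM in Control + CsA replicate 1 and at 2.21 and 3.10 TPM in Restored replicates 2 and 3, and was listed at 0 in the other 21 libraries. Its interactions of -1.77, -1.68 and -2.03 thus each rest on 1 library, which in replicate 1 is Control + CsA. It passed the filter through these 3 libraries alone, all of which enter the interaction with a minus sign, so its call gives no support for a direction. The gene lies inside Loxl2 on the same strand (chr14:69692248-69692320, GENCODE M21).

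The 3 calls depended on the fit. Without Type D replicate 1 the count was 1, the short RNA gene Mir7664 with a positive estimate of 3.71, which is not among the 3. Without replicate 2 the count was 0 and without replicate 3 it was 10, with Ankrd37 the 1 gene shared with the 3. It was 0 without any 1 of the 3 Type V lines, which share the estimate of spread. With 24 libraries in place of line differences it was 0, with or without the line as a block, and without the 384 short RNA genes, an alternative chosen after seeing the data, it was 21.

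Other genes of the hypoxia response had negative values too. The list of 35 such genes was drawn up after Ankrd37 and Bnip3 had been seen, so it describes the result and does not test it. Of the 34 members tested, 33 were negative in Type D (97.1%, against 43.7% of all genes), with a median of -0.56 beside 0.03 for all genes. In Type V, 7 of 34 were negative (20.6%, against 52.7%), with a median of 0.13 beside -0.01. In Type D 2 members were called, and in Type V and in the difference of the types 0 were called.

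The line medians of the hypoxia list were -0.53, -0.49 and -0.70 in Type D and 0.10, 0.29 and 0.05 in Type V. Without CsA, the median restoration response of the list was 0.38 in Type D and with CsA it was -0.21. The effect of CsA on the list was -0.08 in Type D Control and -0.67 in Type D Restored cells, beside -0.03 and 0.00 over all genes. The corresponding Type V medians were -0.07 and 0.05. The Type D median stayed between -0.68 and -0.54 over the alternatives run.

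Egln3, the oxygen-sensing prolyl hydroxylase that marks HIF for destruction, had a Type D interaction of -1.67 ± 0.18 (SE, n = 3 lines; limma adjusted p = 0.051). Type D Restored held 51.4, 54.4 and 88.7 TPM and Restored + CsA 10.7, 19.3 and 32.0 TPM, against 31.8, 52.0 and 84.5 TPM in Control and 29.6, 52.3 and 88.0 TPM in Control + CsA. All 3 Restored + CsA values lay below their line's Control value. Egln3 was chosen after its values were seen, as were the other hypoxia genes named next and Plk1.

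Among the enzymes, P4ha2, a collagen prolyl hydroxylase, had a Type D interaction of -0.85 (limma adjusted p = 0.0595), and Pdk1, the kinase that restrains pyruvate oxidation, one of -0.90 (0.0698). Hilpda, a lipid droplet protein, stood at -1.25 (0.112), with 517.1, 1001 and 423.3 TPM in Type D Restored and 177.4, 443.6 and 222.2 TPM in Restored + CsA. Vegfa, the vessel growth factor, stood at -0.96 (0.21). Glycolytic members had smaller estimates, with Gapdh at -0.56, Ldha at -0.56, Pgk1 at -0.51 and Aldoa at -0.49. Stc2, at 0.22, was the 1 positive member.

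Motif matches were common in the list's promoters, with ACGTG or GCGTG in 35 of 43 windows (81.4%). The 43 windows belong to 29 of the 34 genes. Because the list was made of known hypoxia response genes, a high share of the HIF core is no independent evidence on the interaction. The share was 69.6% of 23 windows of the ATF4 list, 63.2% of 38 windows of the cell cycle list and 43.8% of all windows.

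**Figure D3:**
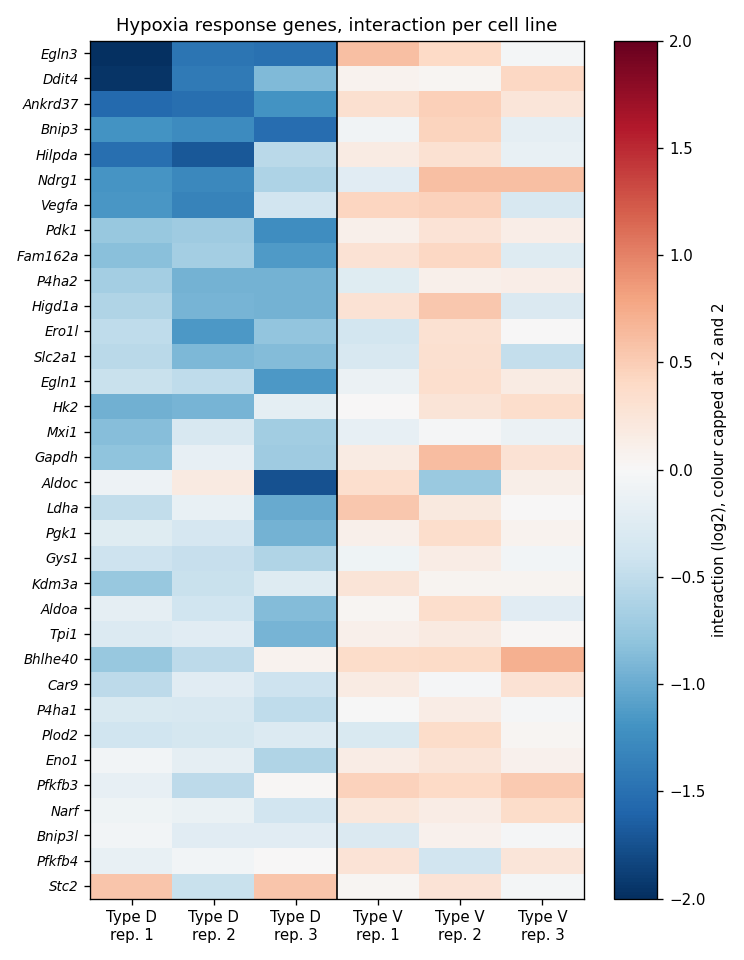
The interaction in log2 (color, capped at -2 and 2) of the 34 hypoxia response genes (rows, ordered by the Type D mean) in each of the 6 lines (columns). Type D columns are negative for 33, 33 and 30 genes, and Type V columns for 11, 4 and 13.

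ATF4 targets were mostly negative in Type D. Of 21 genes, 19 were negative in Type D and 2 in Type V, with medians of -0.64 and 0.22, and 0 were called. The line medians were -0.51, -1.18 and 0.09 in Type D, negative in 2 of 3 lines, and 0.21, 0.33 and 0.27 in Type V. The Type D median was -0.28 without replicate 2 and -0.93 without replicate 3. The median effect of CsA on the list in Type D was 0.72 in Control and 0.26 in Restored cells. In Type V it was 0.13 and 0.39.

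Ddit4, an inhibitor of mTORC1 that both p53 and ATF4 raise, had a Type D interaction of -1.42 ± 0.18 (SE, n = 3 lines; limma adjusted p = 0.0613). Its TPM was 252.0, 311.7 and 247.0 in Type D Restored and 117.2, 195.2 and 182.5 in Restored + CsA. In Type D Control it was 37.0, 147.9 and 79.7 TPM, and in Control + CsA 68.4, 247.4 and 109.5 TPM. The Type V interactions of Ddit4 were 0.06, 0.04 and 0.41. Sesn2, the leucine sensor sestrin 2, stood at -1.23 in Type D (limma adjusted p = 0.101). Type D TPM of Sesn2 was 15.7, 22.1 and 17.0 in Control, 47.1, 47.4 and 31.6 in Control + CsA, 191.1, 166.2 and 136.9 in Restored and 184.6, 125.4 and 158.0 in Restored + CsA. Control + CsA lay above Control in 3 of 3 lines, and Restored + CsA below Restored in 2 of 3.

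In Type D, 20 of 22 immediate early genes were negative (median -0.39) and in Type V 10 of 22 (median 0.02), with 0 called. Egr2, a zinc finger transcription factor, had a Type D interaction of -1.47 ± 0.18 (SE, limma adjusted p = 0.0585) at levels of at most 6.64 TPM in Type D. Atf3, a stress transcription factor, stood at -1.06, with line values of -0.85, -2.33 and 0.01.

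Of 17 genes of cytokines and NF-kB, 15 were negative in Type D (median -0.71) and 8 in Type V (median 0.01), again with 0 called. Csf2, the growth factor GM-CSF, had a Type D interaction of -1.76 ± 0.40 (SE, limma adjusted p = 0.225). Its TPM was 398.1, 439.3 and 228.9 in Type D Restored and 48.1, 201.1 and 111.6 in Restored + CsA. The line values were -2.62, -2.37 and -0.27, with replicate 3 nearest 0. The Type D median of the list was -0.43 without replicate 1. Ccl2, a monocyte chemokine, stood at -1.28 (limma adjusted p = 0.1). Unlike Csf2, it fell with restoration in Type D, from 94.4, 180.4 and 157.9 TPM in Control to 7.02, 30.5 and 21.9 in Restored. With CsA it fell from 116.9, 270.6 and 204.6 TPM to 2.35, 14.0 and 18.1. Of 16 NRF2 targets, 15 were negative in Type D and 3 in Type V, with medians of -0.17 and 0.15.

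Gdf15, a stress-induced cytokine and p53 target, had a Type D interaction of -1.22 ± 0.16 (SE, n = 3 lines; limma adjusted p = 0.0698). Type D Restored held 1303, 3023 and 859 TPM and Restored + CsA 628, 1766 and 698 TPM. Control + CsA lay above Control in each Type D line, at 80.9, 261.9 and 130.0 against 49.5, 217.9 and 87.0 TPM. The Type V interactions were -0.29, 0.03 and -0.35.

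The leukocyte inhibitory receptor genes Lilrb4a and Lilr4b had Type D interactions of -2.21 and -2.17 (limma adjusted p = 0.101 and 0.135). Lilrb4a reached 1 TPM in the 3 Type D Restored libraries and 1 other, so it passed the filter only through a group that enters with a minus sign, and its direction is no independent result. It was at 0 TPM in every Type D Control and Control + CsA library, at 17.1, 7.27 and 4.74 TPM in Restored and at 0.655, 1.88 and 0.815 TPM in Restored + CsA. Lilr4b reached 70.6, 20.9 and 13.4 TPM in Restored and 4.41, 6.001 and 2.62 TPM in Restored + CsA. The 14 leukocyte markers, which include these genes, summed to 165.9 to 232.0 TPM in Type D Restored and to 113.6 to 153.3 TPM in Restored + CsA, of which Cd14 made up 104.7 to 107.5 and 78.8 to 104.5 TPM. The defining markers Tyrobp and Cd3e were at 0 in all 24 libraries and Ptprc was at most 0.154 TPM, while Cd68 ranged from 5.60 to 55.3 TPM. Their part in the Type D values was not tested.

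**Figure D4:**
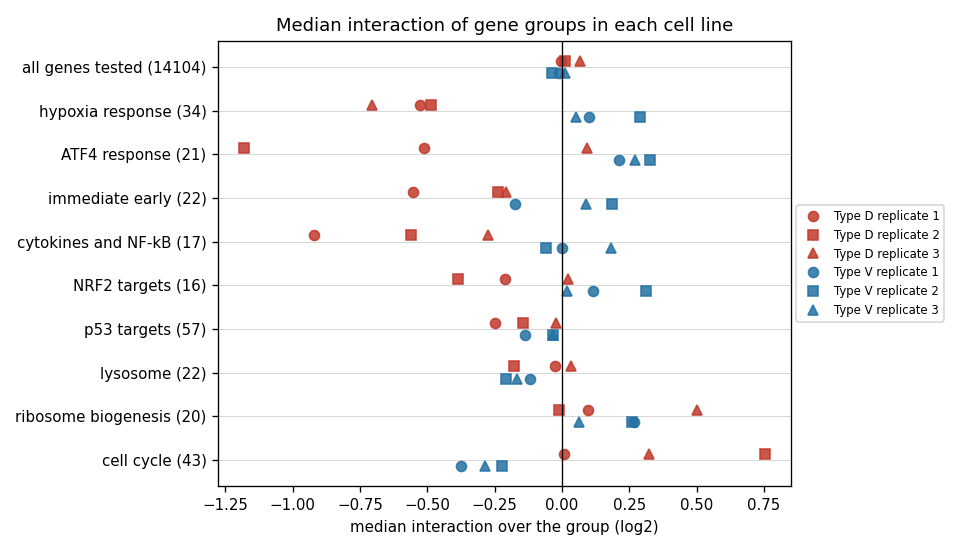
The median interaction in log2 (x axis) of 10 gene groups (number of genes in brackets) with 1 point per cell line. The hypoxia medians are negative in 3 of 3 Type D lines and positive in 3 of 3 Type V lines, and the cell cycle medians lie the other way round.

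Cell cycle genes lay the other way round in the types. Of 43 genes, 1 was negative in Type D and 40 in Type V, with medians of 0.37 and -0.33, and 0 were called in either type or in their difference. The line medians were 0.01, 0.75 and 0.32 in Type D and -0.38, -0.22 and -0.28 in Type V, and the pooled median was 0.01. Without Type D replicate 2 the Type D median was 0.14. Their restoration response without CsA had a median of -2.53 in Type D and -1.77 in Type V, against -2.12 and -2.11 with CsA. In Type V the median effect of CsA on the list was -0.68 in Restored and -0.29 in Control cells, and in Type D it was 0.05 and -0.30.

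Plk1, a kinase of mitosis, had interactions of 0.23, 0.80 and -0.06 in Type D and of -0.35, -0.51 and -0.73 in Type V. The difference of the types was 0.85 ± 0.23 (SE, limma adjusted p = 0.437). Type V Restored held 30.9, 24.1 and 26.2 TPM of Plk1 and Restored + CsA 19.8, 14.3 and 9.91 TPM. Ccnb2, which encodes cyclin B2, stood at 0.18 in Type D and -0.66 in Type V. Without Type D replicate 2 its Type D value was -0.17.

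The study's Module 3, a set of genes lowered by restoration, had 11 of 231 genes negative in Type D and 159 of 231 in Type V. The medians were 0.33 and -0.12. The module was chosen on the Control and Restored libraries, which enter the interaction with opposite signs. Choosing genes lowered in those libraries favors positive values, so the module's positive direction in Type D is not independent evidence. Genes of ribosome biogenesis were positive for 19 of 20 in Type D and 20 of 20 in Type V. Their Type D median was 0.23, or 0.07 without replicate 3 and 0.35 without replicate 2. The pooled interaction was above 0 for 20 of 20, with a median of 0.20, 0 called and 12 at an unadjusted p under 0.05 (3.98% of all genes on that side). Rrp12, a processing factor of ribosomal RNA, stood at 0.35 and Tcof1, a cofactor of its transcription, at 0.32 (limma adjusted p = 0.551 and 0.522). Lysosome genes were negative for 20 of 22 pooled, with a median of -0.10.

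**Figure D5:**
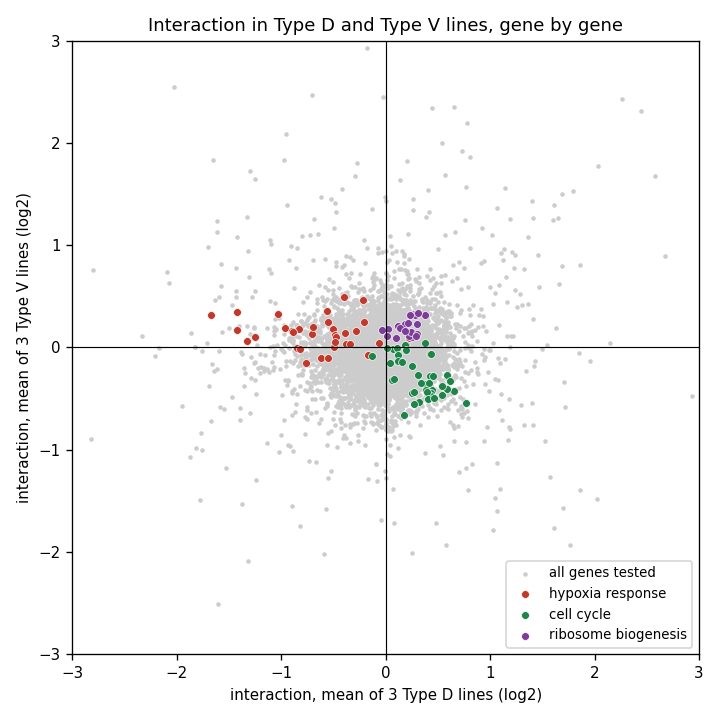
The mean interaction over 3 Type D lines (x axis, log2) against that over 3 Type V lines (y axis, log2) for 14100 of the 14104 genes, with 4 genes beyond 3 log2 not drawn. Hypoxia response genes lie to the left, near or above 0 in Type V, cell cycle genes lie at the lower right, and ribosome biogenesis genes lie mostly at the upper right.

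In the Type V lines, 0 of 14104 genes were called (0%), the smallest adjusted p was 0.148 and 728 genes had an unadjusted p under 0.05 (5.16%), 491 negative (3.48%) and 237 positive (1.68%). Among the lists, the fibroblast and endothelial markers had 5 of 5 tested members negative in Type V (100%, against 52.7% of all genes). The 5 were Pdgfrb, Col1a1, Col3a1, Dcn and Acta2, and no endothelial marker passed the filter. The line medians were -0.69, -0.60 and 0.31, with 2 of 5 negative in replicate 3. Dcn, the proteoglycan decorin, had a Type V interaction of -1.21 (limma adjusted p = 0.685). All markers of the list summed to 84.3 to 547.5 TPM in Type V Restored and to 64.9 to 334.8 TPM in Restored + CsA. In any Type D group they summed to at most 3.80 TPM. Their part in the Type V values was not tested.

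Between the types, 1 of 14104 genes was called (0.00709%), the short RNA gene Mir199a-1, and 1057 had an unadjusted p under 0.05 (7.49%), 420 with Type D below Type V (2.98%) and 637 above (4.52%). Type D lay below Type V in 42.1% of all genes. All 3 Type D lines lay below all 3 Type V lines for 656 genes (4.65%) and above them for 1164 (8.25%). The 3 Type D lines were negative and the 3 Type V lines positive for 180 genes (1.28%), and the reverse for 337 (2.39%). Across genes, the interaction of a line correlated with that of another at r of 0.066 to 0.152 within Type D, 0.061 to 0.102 within Type V and -0.078 to 0.105 between types. These values describe 14104 genes that are not independent, and lines share no library. The mean restoration response of the same lines correlated at 0.58 to 0.85.

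Mir199a-1 had interactions of -4.67, -2.49 and -3.25 in Type D and of 4.20, 3.59 and 2.71 in Type V, a difference of -6.97 ± 0.59 (SE, limma adjusted p = 0.0348). Its TPM in Type D was 0, 0 and 2.58 in Control, 10.1, 0 and 2.19 in Control + CsA, 19.2, 4.62 and 9.69 in Restored and 7.80, 0 and 0 in Restored + CsA. In Type V it was 6.91, 2.57 and 0 in Control, 0 in all 3 Control + CsA libraries, 2.01, 0 and 0 in Restored and 5.97, 2.37 and 5.52 in Restored + CsA. It was at 0 in 11 of 24 libraries. The call was lost in 11 of 14 alternatives, among them when Type D replicate 1 or 3 or any Type V line was left out.

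The gene lies on the minus strand at chr9:21496495-21496564 (GRCm38.p6), antisense within Dnm2, and libraries of mRNA do not measure the mature miRNA. Its hairpin is shown from RefSeq because it is the transcript the value is assigned to, with the mature 5p and 3p arms in capitals.

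Mir199a-1: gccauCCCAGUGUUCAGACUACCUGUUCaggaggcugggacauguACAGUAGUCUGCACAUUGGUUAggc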

How the data were processed

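The 24 libraries were single-end mRNA sequencing of 6 lines under 4 treatments. The authors deposited TPM per gene, in which each library sums to the same total. The methods name Kallisto or HISAT2 and write both mm10 and GRCm39, and which made this table is not given in the sources used here. Depth is unknown, so no counting interval was computed.

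TPM were taken as log2(TPM + 1), and genes reaching 1 TPM in 3 or more libraries were kept. The 6 line values entered limma's moderated test (limma 3.58.1, R 4.3.3; prior variance with a trend, Benjamini-Hochberg adjustment), pooled and per type, with the types sharing 1 estimate of spread. A call needed an adjusted p under 0.05 and at least 1 log2. Because values are on the log2(TPM + 1) scale, they understate changes of low genes.

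The labels tie the 4 treatments to 1 line, and the line difference removes the line. Deviations from the group means correlated at 0.599 to 0.929 in 36 same-line pairs and at -0.727 to 0.0438 in 96 pairs of different lines of a type. Each group mean is over 3 libraries, whose deviations cancel, so negative values between different lines are favored by construction.

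Genes were named if called, if among the 8 smallest p per direction with 1 sign in 6 lines, if in a fixed set (Trp53, Cdkn1a, Mdm2, Gdf15, Apaf1, Perp, Ppia, Ppie, Lilrb4a, Lilr4b), or if among the 2 members of a list with the largest pooled value. Not all genes so named are printed, and some are not reported here. The comparison and the lists were chosen with earlier results of these data known, and the hypoxia list after its leading genes were seen. Of 1189 list genes, 1170 matched the table. Alternatives covered the pseudocount, filter, scaling, line block, prior variance, call size and each line left out.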

Additional observations from a re-analysis of the deposited data

Results flagged for a closer look

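The difference of the types for Mir199a-1 was flagged because the test of that difference passed the threshold, at -6.97 log2 (limma adjusted p = 0.0348). The 3 Type D lines lay below 0 and the 3 Type V lines above it, and the gene was listed at 0 in 11 of 24 libraries.

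The median of the cell cycle list was flagged because its 3 Type D lines lay above 0 and its 3 Type V lines below. The mean of the line medians was 0.36 in Type D and -0.29 in Type V, a difference of 0.65 log2, which was not tested. The lowest Type D line median was 0.01.

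Among 46 sets of 6 line values examined, 45 of them of named genes, no line's gap to the nearest of the others exceeded Dixon's 95% critical value. Chance would flag about 1 in 20 such sets.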

How the results depend on the processing

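Of 83 alternatives for the counts of calls and the slope, 55 left the value within its limits. The Type D count of 3 became 1 with no filter, 7 with a TPM of at least 5, 13 with median-ratio scaling, 8 with quantile normalization, 6 without a trend in the prior variance and 21 without short RNA genes (chosen after seeing the data), and ran from 0 to 10 when 1 line was left out. The count of 1 between the types became 0 under both scalings, without the trend and without short RNA genes, and ran from 0 to 1 with 1 line left out. The pooled count ran from 0 to 1. With 24 libraries fitted together, without or with the line as replicate block, the Type D count was 0 and that between the types 0. The cause was not tested.

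The slope was -0.20 when the response with CsA was regressed on that without (exact permutation p = 0.03125), and -0.14 with the 2 exchanged (chosen after seeing the data). Scatter in the predictor lowers such a slope by construction, and how much of either value it makes up was not tested. With 1 line left out, Trp53 ran from -0.067 to 0.064 and Apaf1 from -0.10 to 0.033 (pooled), Ccnb2 from -0.17 to 0.42 in Type D and Bnip3 from -0.13 to 0.19 in Type V. Over 14 alternatives the adjusted p of Ankrd37 in Type D ran from 0.0259 to 1 and that of Bnip3 from 0.0286 to 1, with a call in 6 and 4. In the 2 filters chosen after seeing the data both were called, at 0.0146 without short RNA genes and 0.0397 with 1 TPM in 6 libraries. Depth is unknown, and 3 lines a type gave a median unadjusted 95% half-width of 0.35 log2. After adjustment, Type D values of -2.21 (Lilrb4a) and -3.47 (Mir199a-1) were among those not called.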

Other observations

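Several lists had a median interaction close to that of all genes, and none held a called gene. In the pooled lines the medians were -0.03 for 29 apoptosis genes, -0.05 for 15 genes of other death pathways, 0.02 for 19 endoplasmic reticulum chaperones, 0.04 for 25 genes of cholesterol synthesis, -0.03 for 20 interferon genes and 0.08 for 8 ABC drug transporters. Mesenchymal genes had a median of -0.11 over 20 genes and epithelial genes one of -0.08 over 18. Only 5 of 15 neuroendocrine genes could be tested, with a median of 0.09. The study's remaining modules, chosen on libraries that enter the interaction, had pooled medians of -0.09 in Module 1, 0.07 in Module 2, 0.03 in Module 4 and -0.09 in Module 6.

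Ivl, which encodes the cornified envelope protein involucrin, had 20.7, 17.3 and 27.2 TPM in Type D Restored and 1.96, 4.25 and 8.37 TPM in Restored + CsA. Its Type D interaction of -1.55 ± 0.32 (SE, n = 3 lines) was not called (limma adjusted p = 0.202). Hmox1, the heme-degrading enzyme, had 2793, 2408 and 1039 TPM in Type D Restored and 1261, 857.4 and 732.8 TPM in Restored + CsA, with an interaction of -1.11 in Type D and 0.45 in Type V (limma adjusted p = 0.214 and 0.968).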
